A study of Homo sapiens with 38 samples.

Results

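The genes described here encode 10 receptor chains for interleukins and interferon: IL2RA, IL2RB, IL2RG, IL4R, IL7R, IL6ST, IL10RA, IL21R, IFNGR1 and IL12RB2. They were 10 of the 20037 protein-coding genes of the annotation. For each gene, all regions lying wholly within its RefSeq record on GRCh38 or within 50 kb of either end were taken from 3 lists of chromatin immunoprecipitation and sequencing (ChIP-seq) peaks. The windows held 67 of 29009 GATA3 regions, 52 of 26205 BHLHE40 regions and 131 of 113570 H3K27ac regions. IL4R and IL21R are neighbours, and 2 GATA3, 3 BHLHE40 and 5 H3K27ac regions lay in the windows of both and were counted once in these totals.

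The study used Jurkat cells, an established human T-cell acute lymphoblastic leukaemia (T-ALL) line, and its 38 samples fell into 19 groups of 2. The 3 groups used here carried a control lentivirus (Ctrl_LV) and had received PMA (50 ng/ml) together with ionomycin (500 ng/ml), a drug pair that mimics T-cell receptor signalling. The labels of the samples give 5 hours for this treatment, whereas the protocol text gives 2 hours. The other 16 groups, which held cells with a targeting or non-targeting guide, cells over-expressing BHLHE40, TAL1 and H3K27me3 samples and input DNA, were not analysed here. Each list stood for both samples of a group, so no spread between replicates and no sequencing depth can be given, and every statement below is a description of 1 list per target, without a test between conditions. In these lists an H3K27ac region lay within 1 kb of the gene start at 10 of 10 T-cell marker genes, 1 of 5 B-cell markers (CD79A), 0 of 5 myeloid and 0 of 5 erythroid markers, against 55.3% of all protein-coding genes.

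Interleukin receptors are assembled from chains that are often shared. IL2RG, the common gamma chain, pairs with private chains such as IL4R, IL7R and IL21R, and with IL2RB, which also signals for the IL-2 receptor. IL2RA raises the affinity of that receptor and is a classical marker of activated T cells. IL6ST, also called gp130, is the shared signal-transducing chain of the IL-6 family. IL10RA and IFNGR1 are the ligand-binding chains for IL-10 and interferon gamma, and IL12RB2 is a chain of the IL-12 receptor associated with type 1 helper T cells. GATA3 is a zinc-finger factor of T-cell development and type 2 helper cells, BHLHE40 is a basic helix-loop-helix factor that recognises E-box sequences, and H3K27ac is a histone mark of active promoters and enhancers.

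The regions at the gene starts are shown first, as promoter sequence. RefSeq promoter windows of GRCh38.p14 were used, covering 250 bases before to 50 after each start, 5′ to 3′ on the gene's strand, and 9 of the 10 genes matched. IL2RB was not matched, and both ends of its record were used in place of its start. The first 5 windows below are of the 5 genes with a window that a BHLHE40 region overlapped. IFNGR1 has another window, chr6:137219147-137219446, which the same region overlapped and which is not printed. IL7R and IL12RB2 are shown for contrast, since no region of any list overlapped their windows. IL12RB2 also has another window, chr1:67307114-67307413, which is not printed. Capitals mark matches to 6 short motifs, searched on either strand. The motif of GATA factors, the family of GATA3, was written AGATAA. The E-box form of the BHLHE40 kind was searched as the letters CACGTG. The E-box form of the TAL1 kind was searched as the letters CAGATG. The motif of AP-1 factors, with any base in the middle, was TGANTCA. RUNX factors were represented by the letters TGTGGT. ETS factors were represented by the letters CCGGAAG. No matches overlapped one another in these windows.
IL2RA, chr10:6062318-6062617, minus strand: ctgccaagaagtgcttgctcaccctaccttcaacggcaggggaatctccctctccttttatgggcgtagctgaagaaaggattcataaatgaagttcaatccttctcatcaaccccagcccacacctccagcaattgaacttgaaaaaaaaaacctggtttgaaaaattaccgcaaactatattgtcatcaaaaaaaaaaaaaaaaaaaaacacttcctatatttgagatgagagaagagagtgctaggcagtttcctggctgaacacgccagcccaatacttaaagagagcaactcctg
IL2RG, chrX:71111528-71111827, minus strand: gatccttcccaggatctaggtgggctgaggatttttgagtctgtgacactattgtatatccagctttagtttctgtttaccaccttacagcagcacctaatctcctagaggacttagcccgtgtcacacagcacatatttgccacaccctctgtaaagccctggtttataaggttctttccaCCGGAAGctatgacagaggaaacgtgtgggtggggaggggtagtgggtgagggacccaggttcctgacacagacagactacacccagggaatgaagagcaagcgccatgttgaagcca
IL6ST, chr5:55994914-55995213, minus strand: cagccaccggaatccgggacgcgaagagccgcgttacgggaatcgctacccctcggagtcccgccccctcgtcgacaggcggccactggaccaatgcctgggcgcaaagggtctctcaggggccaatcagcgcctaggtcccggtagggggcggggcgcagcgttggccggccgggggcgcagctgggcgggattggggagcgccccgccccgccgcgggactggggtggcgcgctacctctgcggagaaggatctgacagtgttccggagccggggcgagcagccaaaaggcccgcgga
IFNGR1, chr6:137219336-137219635, minus strand: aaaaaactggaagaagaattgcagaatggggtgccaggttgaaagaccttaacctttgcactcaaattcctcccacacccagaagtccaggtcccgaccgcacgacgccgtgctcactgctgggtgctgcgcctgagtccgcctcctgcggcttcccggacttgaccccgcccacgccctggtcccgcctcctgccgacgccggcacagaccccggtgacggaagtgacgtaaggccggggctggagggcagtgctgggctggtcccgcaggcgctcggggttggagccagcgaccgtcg
IL21R, chr16:27427021-27427320, plus strand: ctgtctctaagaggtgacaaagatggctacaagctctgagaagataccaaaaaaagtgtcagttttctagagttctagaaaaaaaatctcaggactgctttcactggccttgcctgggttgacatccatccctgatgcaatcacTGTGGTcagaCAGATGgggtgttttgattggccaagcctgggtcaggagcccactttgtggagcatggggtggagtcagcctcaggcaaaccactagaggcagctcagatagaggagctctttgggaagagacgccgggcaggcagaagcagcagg
IL7R, chr5:35856641-35856940, plus strand: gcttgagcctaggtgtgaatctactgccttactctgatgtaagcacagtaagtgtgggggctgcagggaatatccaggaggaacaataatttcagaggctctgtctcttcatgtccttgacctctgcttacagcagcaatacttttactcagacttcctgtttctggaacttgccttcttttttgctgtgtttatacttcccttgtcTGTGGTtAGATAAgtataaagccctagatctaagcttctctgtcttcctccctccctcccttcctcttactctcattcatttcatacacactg
IL12RB2, chr1:67307623-67307922, plus strand: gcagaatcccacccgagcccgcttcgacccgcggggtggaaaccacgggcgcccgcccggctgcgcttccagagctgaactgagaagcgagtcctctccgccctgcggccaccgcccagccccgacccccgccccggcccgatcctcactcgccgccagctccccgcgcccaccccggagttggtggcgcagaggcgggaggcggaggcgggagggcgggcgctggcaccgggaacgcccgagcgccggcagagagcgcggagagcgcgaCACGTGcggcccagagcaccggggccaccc

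The summit is the position of highest enrichment within a region, and 3 BHLHE40 summits fell inside these windows. Counted from the first printed base, the summit was at base 141 in the IL2RA window, 132 in the IL2RG window and 232 in the IFNGR1 window. They lay 110 bp, 119 bp and 19 bp before the gene start. The letters CACGTG were found in 1 of the 11 windows of the member genes, that of IL12RB2 printed above, which no region overlapped. These letters were in 7.26% of all 35116 windows. They were in 11.2% of the 11437 windows that a BHLHE40 region overlapped, and in 10.6% of the 4927 that a GATA3 region overlapped. AGATAA was found in the windows of IL7R and IL10RA (10.3% of all windows), where no GATA3 region overlapped. It was in 8.08% of the windows that a GATA3 region overlapped and in 4.54% of those that a BHLHE40 region overlapped. CAGATG was found for IL21R and IL12RB2 (14.7% of all), TGTGGT for IL7R, IL21R and IL12RB2 (13.1%), TGANTCA for IL10RA (7.71%) and CCGGAAG for IL2RG (10.3%). The CAGATG and TGTGGT matches of IL12RB2 lay in its window that is not printed. These matches describe the letters only.

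Base composition varied between the windows. The CG dinucleotide occurred 4 times in the windows of IL2RA, IL2RG and IL10RA, 2 times in that of IL21R and not at all in that of IL7R. It occurred 42 times for IL4R, 36 times for IL6ST and 25 times in the IFNGR1 window printed above, with 29 in its other window. The IL12RB2 windows, which no region of any list overlapped, held 41 in the printed window and 10 in the other. Of the 10410 windows in the table with at most 4 CG dinucleotides, 2.98% overlapped a BHLHE40 region, 5.77% an H3K27ac region and 2.32% a GATA3 region. Among the 5 such windows of the member genes, 3 overlapped BHLHE40 and H3K27ac (IL2RA, IL2RG and IL21R) and 0 overlapped GATA3. The limit of 4 was set after these values were seen. Above that limit, 45.0% of 24706 windows overlapped BHLHE40, as did 3 of 6 member windows. These 3 were the IL6ST window and both IFNGR1 windows, which the same region overlapped.

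Regions within 1 kb of the gene start were counted for each list. A BHLHE40 region was found there at 5 of 10 genes (IL2RA, IL2RG, IL6ST, IL21R and IFNGR1), against 47.1% of all protein-coding genes. H3K27ac was found at 6 of 10, the same 5 genes and IL4R, against 55.3%. GATA3 was found at 1 of 10, IL6ST, against 22.2%. With 10 genes, none of these 3 counts stood far from its background. BHLHE40 with H3K27ac but without GATA3 held for 4 of 10 starts, against 24.9%. IL2RB, IL7R, IL10RA and IL12RB2 had no region of any list within 1 kb of the start, as did 42.3% of protein-coding genes. From the IL7R start the nearest H3K27ac region was 1010 bp away, just outside this limit, and from the IL12RB2 starts it was 12042 bp away. Counting both ends of the gene records instead was a setting added after seeing the data. It raised GATA3 to 3 of 10, by regions at the far ends of IFNGR1 and IL10RA. BHLHE40 rose to 6 of 10, by a region at the far end of IL4R, and H3K27ac to 7 of 10. The added H3K27ac region lay at the lower-coordinate end of the IL10RA record, and the start used lay inside that record. Whether IL10RA had H3K27ac at its start therefore depended on the start taken.

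The regions at gene starts were compared by their signal value, which is the authors' enrichment per region. For BHLHE40 they were 6.98 at IL2RA, 13.4 at IL2RG, 8.75 at IL6ST, 15.1 at IL21R and 9.25 at IFNGR1, where the median of the whole list was 9.35. IL2RG and IL21R were the higher of the 5. For H3K27ac the strongest region near the start had a signal value of 9.35 at IFNGR1, 6.81 at IL2RG, 6.48 at IL6ST, 4.98 at IL21R, 4.71 at IL4R and 3.00 at IL2RA, where the list median was 3.31. All but IL2RA lay above that median. At IL2RA the mark was split into 3 small regions with a −log10 q of at most 2.58, and with a −log10 q of at least 5 required IL2RA dropped out.

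Away from the starts, the windows were well filled with GATA3 and BHLHE40. All 10 windows held regions of each list, as did 75.9% of protein-coding gene windows for GATA3, 79.8% for BHLHE40 and 92.6% for H3K27ac. Since long genes have longer windows, densities per 100 kb of window were compared. For GATA3 the median over the 10 genes was 3.83 regions per 100 kb, against 0.989 over all protein-coding genes. For BHLHE40 the medians were 3.84 and 1.60, and for H3K27ac 9.37 and 5.87. Every one of the 10 genes lay above the protein-coding median in each of the 3 lists. High density was not particular to these receptor genes. The 10 T-cell marker genes had higher medians than they did: 5.05 for GATA3, 5.61 for BHLHE40 and 13.99 for H3K27ac. The windows of the markers CD3D, CD3E and CD3G overlap.

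IL2RA and IFNGR1 were the densest in GATA3. IL2RA held 14 GATA3 regions, or 9.23 per 100 kb, more than 99.6% of protein-coding genes, and IFNGR1 held 10, or 8.20 per 100 kb, more than 99.4%. IL10RA (6.86 per 100 kb), IL7R (5.70) and IL21R (4.0) followed, and these 5 of 10 genes lay above the 90th percentile, which 10.0% of protein-coding genes exceed by construction. IL12RB2 (3.66), IL2RB (3.35), IL4R (3.31), IL6ST (3.13) and IL2RG (1.92) lay below it. For BHLHE40, 4 of 10 lay above the 90th percentile, against the same 10.0%: IFNGR1 (5.74 per 100 kb), IL21R (5.34), IL2RA (5.27) and IL10RA (5.14). For H3K27ac only IL10RA did, with 13.7 per 100 kb. These counts depended on the window. With 20 kb on each side 3 genes for GATA3 and 2 for BHLHE40 exceeded the percentile, and with 100 kb 7 and 2 did.

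**Figure D1:**
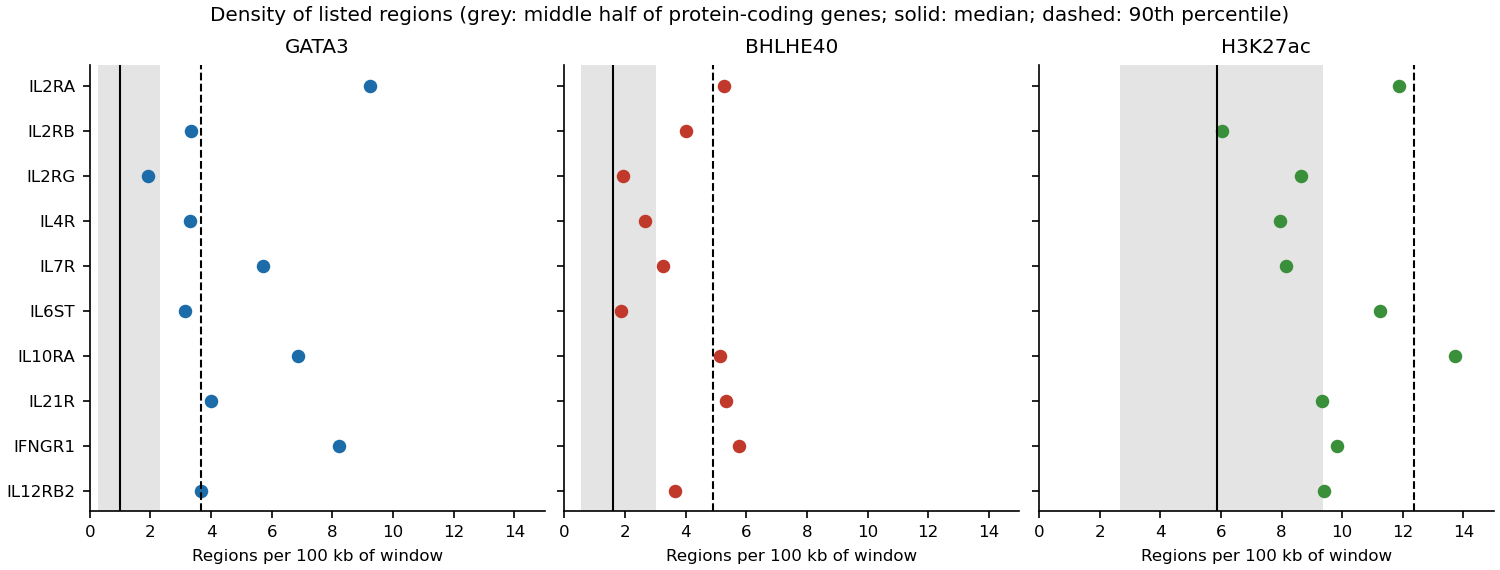
Regions per 100 kb of window (x axis) for each of the 10 genes (y axis), in 1 panel per list; the grey band spans the 25th to the 75th percentile of protein-coding genes, the solid line is their median and the dashed line their 90th percentile. All points lie to the right of the median, and IL2RA (9.23) and IFNGR1 (8.20) lie farthest right for GATA3.

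Many of these regions belonged as much to a neighbour as to the receptor gene. Of the 67 GATA3 regions, 17 (25.4%) had their summit inside a member record, as had 11 of 52 BHLHE40 regions (21.2%) and 43 of 131 H3K27ac regions (32.8%), while the records made up 29.5% of the summed window length. Keeping only regions whose summit was nearer to a member than to any other protein-coding gene left 33 GATA3, 27 BHLHE40 and 70 H3K27ac regions. The strongest GATA3 region of the window was nearest to the member gene itself in 6 of 10 windows, and the strongest BHLHE40 region in 3 of 10. Exons and introns are not told apart by the gene table used.

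**Figure D2:**
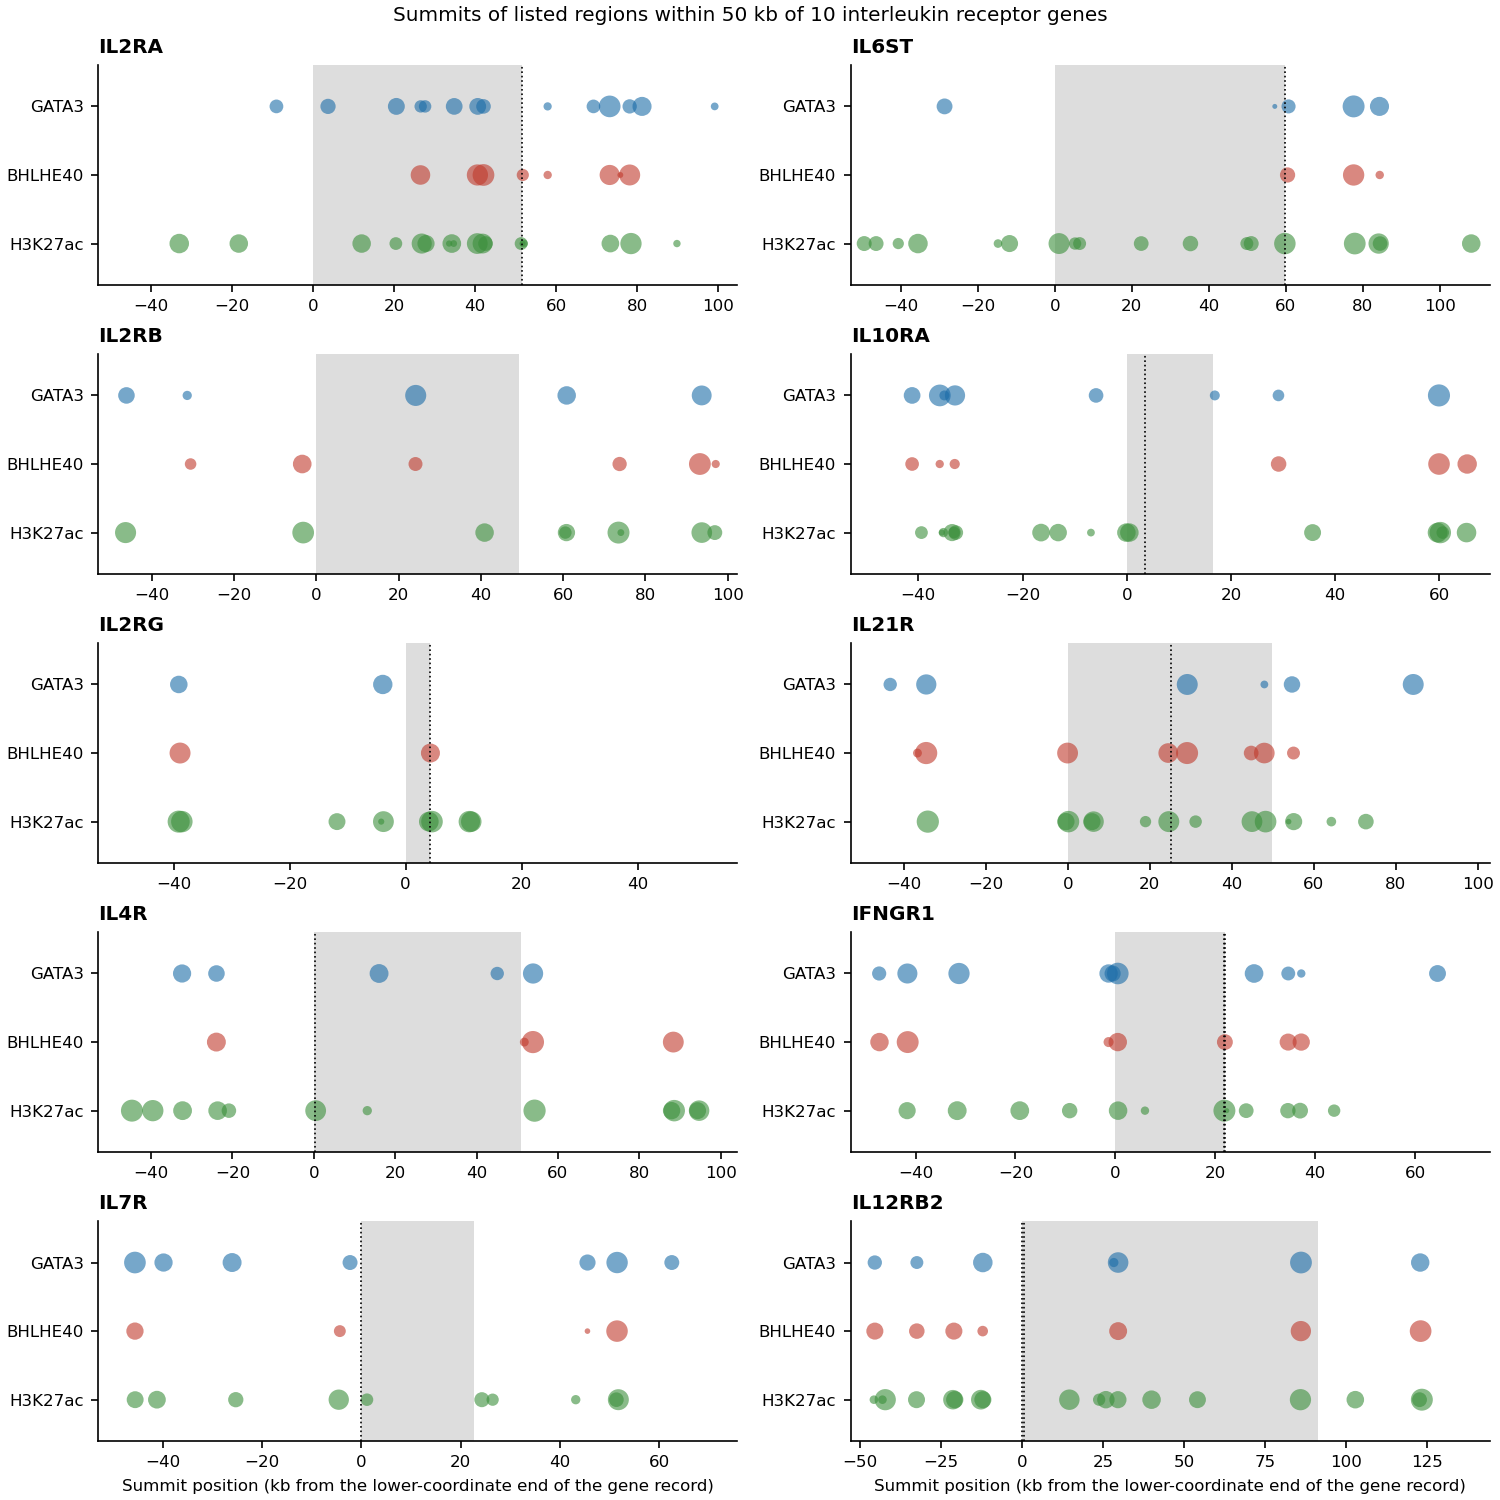
Positions of region summits around each gene, in kb from the lower-coordinate end of the gene record (x axis), with 1 row per list; grey marks the gene record, dotted lines mark gene starts where the promoter table gave one, and larger points rank higher in signal value within their list. GATA3 points cluster in and beyond IL2RA (14 regions), whereas the IL2RG window holds 2 GATA3 and 2 BHLHE40 regions.

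Among the chains of the IL-2 receptor, IL2RA had its strongest BHLHE40 region inside the gene and its strongest GATA3 region outside it. The 14 GATA3 summits included 7 inside the record of IL2RA. Its 14 GATA3 signal values ran from 6.31 to 49.4 with a median of 9.81, below the list median of 11.2, so 1 region stood far above the others. That region, chr10:6083588-6084299, lay 21553 bp beyond the end of the record at which the gene starts and was nearer to RBM17, an RNA-binding splicing factor gene, at 5114 bp. It ranked in the strongest 5.25% of its list, overlapped H3K27ac and a BHLHE40 region of signal value 16.5, and the summits of the 2 factors lay 3 bp apart. The next GATA3 regions in strength were chr10:6091665-6092266, inside RBM17 with a signal value of 17.4, and chr10:6030955-6031448, inside IL2RA with 12.4.

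BHLHE40 was strongest inside IL2RA. Its 8 signal values ran from 4.38 to 31.3 with a median of 15.6. The strongest region, chr10:6052163-6053544, lay 9594 bp into the gene from its start and ranked in the strongest 4.67% of its list. The GATA3 region there had a signal value of 9.92, in the lower part of its list, and the summits lay 6 bp apart. A neighbouring region, chr10:6050825-6051788, had a BHLHE40 signal value of 22.5 against 12.3 for GATA3. Both places carried H3K27ac, with signal values of 4.05 and 4.69. The third, chr10:6088528-6089055, lay 177 bp from RBM17 with a signal value of 20.7, beside the strongest H3K27ac region of the window (chr10:6089001-6089492, signal value 5.78).

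IL2RB held few regions at or near the gene. GATA3 signal values were 12.0, 6.96, 32.7, 15.6 and 21.1 in coordinate order, and the highest, chr22:37149677-37151582, lay inside the record. A BHLHE40 region of signal value 7.93 overlapped it with the summits 52 bp apart, and H3K27ac did not. The 6 BHLHE40 values ran from 5.34 to 33.0 with a median of 8.03. The strongest, chr22:37218654-37219592, lay inside SSTR3, a somatostatin receptor gene, 43954 bp beyond the IL2RB record, where a GATA3 region of 21.1 had its summit 441 bp away. Outside the record, the BHLHE40 region chr22:37122074-37122711 with a signal value of 12.6 lay 3414 bp beyond its lower-coordinate end together with an H3K27ac region of 7.49. The strongest H3K27ac region of the window, with 9.44, lay inside C1QTNF6.

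IL2RG, the shortest of the 10 records at 4.17 kb, had the sparsest window in GATA3. Its 2 GATA3 signal values were 13.5 and 18.6, in SNX12, a sorting nexin gene, and in FOXO4, a forkhead factor gene, with summits 39102 and 3928 bp beyond the IL2RG record. Its 2 BHLHE40 values were 20.5, in SNX12, and 13.4, at the IL2RG start. The SNX12 place carried both factors with summits 214 bp apart and the strongest H3K27ac region of the window (chrX:71067826-71068457, signal value 10.9). The start of IL2RG was the place in this window where BHLHE40 and H3K27ac lay without GATA3.

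The strongest BHLHE40 and H3K27ac regions of all 10 windows lay at a single place between IL4R and IL21R. The BHLHE40 region chr16:27366825-27368385 had a signal value of 70.9, ranking 131 of 26205, and the H3K27ac region chr16:27367008-27368314 had 16.3, ranking 387 of 113570. The GATA3 region there, chr16:27366885-27368338, had 23.6, within the strongest 18% of its list. The summits of the factors lay 31 bp apart. The BHLHE40 summit lay 2819 bp beyond the end of the IL4R record away from its start and 34577 bp from the IL21R record. It was the 1 place in the 10 windows with regions in the strongest 1% of their lists. The 2 windows that share it gave 2 of 10 for BHLHE40, against 2.13% of protein-coding genes, and 2 of 10 for H3K27ac, against 16.0%. For GATA3 it was 0 of 10, against 2.2%.

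Around IL4R itself the factors were less marked. The 5 GATA3 values were 14.8, 11.9, 16.7, 8.98 and 23.6 in coordinate order, so the highest was that of the shared place. The 4 BHLHE40 values were 13.1, 5.65, 70.9 and 19.8, and no BHLHE40 summit lay inside the record. At the start of IL4R an H3K27ac region, chr16:27313849-27314455, had a signal value of 4.71 and overlapped neither factor.

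IL21R, by contrast, carried BHLHE40 within the gene. Its window held 8 BHLHE40 regions with signal values from 5.65 to 70.9 and a median of 16.9, and 4 of the 8 summits lay inside the record. The strongest of these, chr16:27430853-27431544, lay 3980 bp past the gene start with a signal value of 43.3, in the strongest 2.05% of its list. It overlapped the strongest GATA3 region of the window, chr16:27430891-27431497 with 31.2, with summits 45 bp apart, and no H3K27ac region. A BHLHE40 region of 19.8, chr16:27401677-27402618, lay over the lower-coordinate end of the IL21R record, 25170 bp before the start given in the promoter table, with H3K27ac and without GATA3. The second GATA3 region in strength, chr16:27486155-27486637 with 31.0, lay inside GTF3C1, a gene for an RNA polymerase III transcription factor, and overlapped neither other list.

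IL7R, needed for survival of developing and naive T cells, had no factor region inside its record. The 7 GATA3 values ran from 10.2 to 49.7 with a median of 14.9. The strongest, chr5:35811076-35811715, lay in SPEF2, 45601 bp beyond the record, and the second, chr5:35907876-35909252 with 39.5, lay in CAPSL, 28824 bp beyond the other end. At the SPEF2 place the BHLHE40 value was 10.6, and at the CAPSL place it was 26.5, the highest of the 4 BHLHE40 values in the window (10.6, 6.86, 4.19 and 26.5 in coordinate order). At both places the factor summits lay close, 5 bp and 15 bp apart. Near the IL7R start, a BHLHE40 region of 6.86 (chr5:35852287-35852866) overlapped H3K27ac 4320 bp away. The highest H3K27ac value of the window, 5.07 at the CAPSL place, was the lowest such maximum among the 10 genes.

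At IL6ST the factors met at the start and at a stronger place beyond it. The 5 GATA3 values were 11.1, 4.46, 9.49, 66.3 and 17.5, and the 3 BHLHE40 values were 8.75, 23.8 and 5.44, both in coordinate order. At the start, chr5:55993976-55996193 for GATA3 (9.49) and chr5:55994273-55996087 for BHLHE40 (8.75) had summits 259 bp apart. The strongest place lay 17.7 kb beyond the record on the side of the start, at chr5:56011993-56013045 for GATA3 (66.3, strongest 2.73%) and chr5:56012214-56013122 for BHLHE40 (23.8), with summits 5 bp apart. The H3K27ac region there had 7.65, against 6.48 at the start, so all 3 lists were higher away from the start than at it.

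The strongest GATA3 region of the 10 windows lay 43293 bp beyond IL10RA, inside SMIM35. It was chr11:118045677-118047333 with a signal value of 87.6, ranking 380 of 29009. BHLHE40 had 27.8 there, its strongest of the window, with summits 11 bp apart, and H3K27ac had 6.18, also its strongest. The 8 GATA3 values ran from 7.26 to 87.6 with a median of 11.05, and the 6 BHLHE40 values from 5.40 to 27.8 with a median of 8.34. No factor summit lay inside the IL10RA record. On the other side of the gene, chr11:117950193-117951115 had a GATA3 value of 52.2, in the strongest 4.68% of its list. The BHLHE40 value at that place was 5.40, at 89.2% of the way down its own list, with summits 20 bp apart. At the lower-coordinate end of the record lay an H3K27ac region of signal value 3.56, against a list median of 3.31. Its summit lay 3618 bp from the start in the promoter table. A further region of the same signal value, chr11:117986813-117986992, had its summit inside the record.

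IFNGR1 showed both factors at the far end of the gene and BHLHE40 without GATA3 at its start. The 10 GATA3 values ran from 6.57 to 45.9 with a median of 13.8. The strongest, chr6:137197629-137198877, lay inside the record 21230 bp from the nearer start, near the opposite end. BHLHE40 had 12.2 there with its summit 5 bp away, against 9.25 at the start. The 7 BHLHE40 values ran from 6.10 to 37.6 with a median of 10.6. The strongest, chr6:137155526-137156253, lay in IL22RA2, the gene of a soluble IL-22-binding receptor, where GATA3 had 22.3. The second GATA3 region in strength, chr6:137165934-137166442 with 36.0, lay in the same gene and overlapped no BHLHE40 region. At the IFNGR1 start H3K27ac reached 9.35, in the strongest 2.72% of its list.

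IL12RB2 carried its strongest GATA3 region inside the gene record, as did IL2RB, IL21R and IFNGR1. Its 7 GATA3 values ran from 6.95 to 55.2 with a median of 15.4, and the 7 BHLHE40 values from 6.30 to 29.8 with a median of 10.4. The strongest GATA3 region, chr1:67393024-67393817, lay 85604 bp from the nearer start and in the strongest 4.19% of its list. BHLHE40 had 17.1 there with summits 36 bp apart, and H3K27ac 5.69. A second internal place, chr1:67336746-67337529, had 26.3 for GATA3 and 11.5 for BHLHE40 with summits 11 bp apart. The strongest BHLHE40 (29.8) and H3K27ac (9.35) regions lay at the higher-coordinate end of SERBP1, an mRNA-binding protein gene. Their summits were 30 bp and 412 bp beyond its record. Of the 7 GATA3 regions 6 overlapped both other lists.

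**Figure D3:**
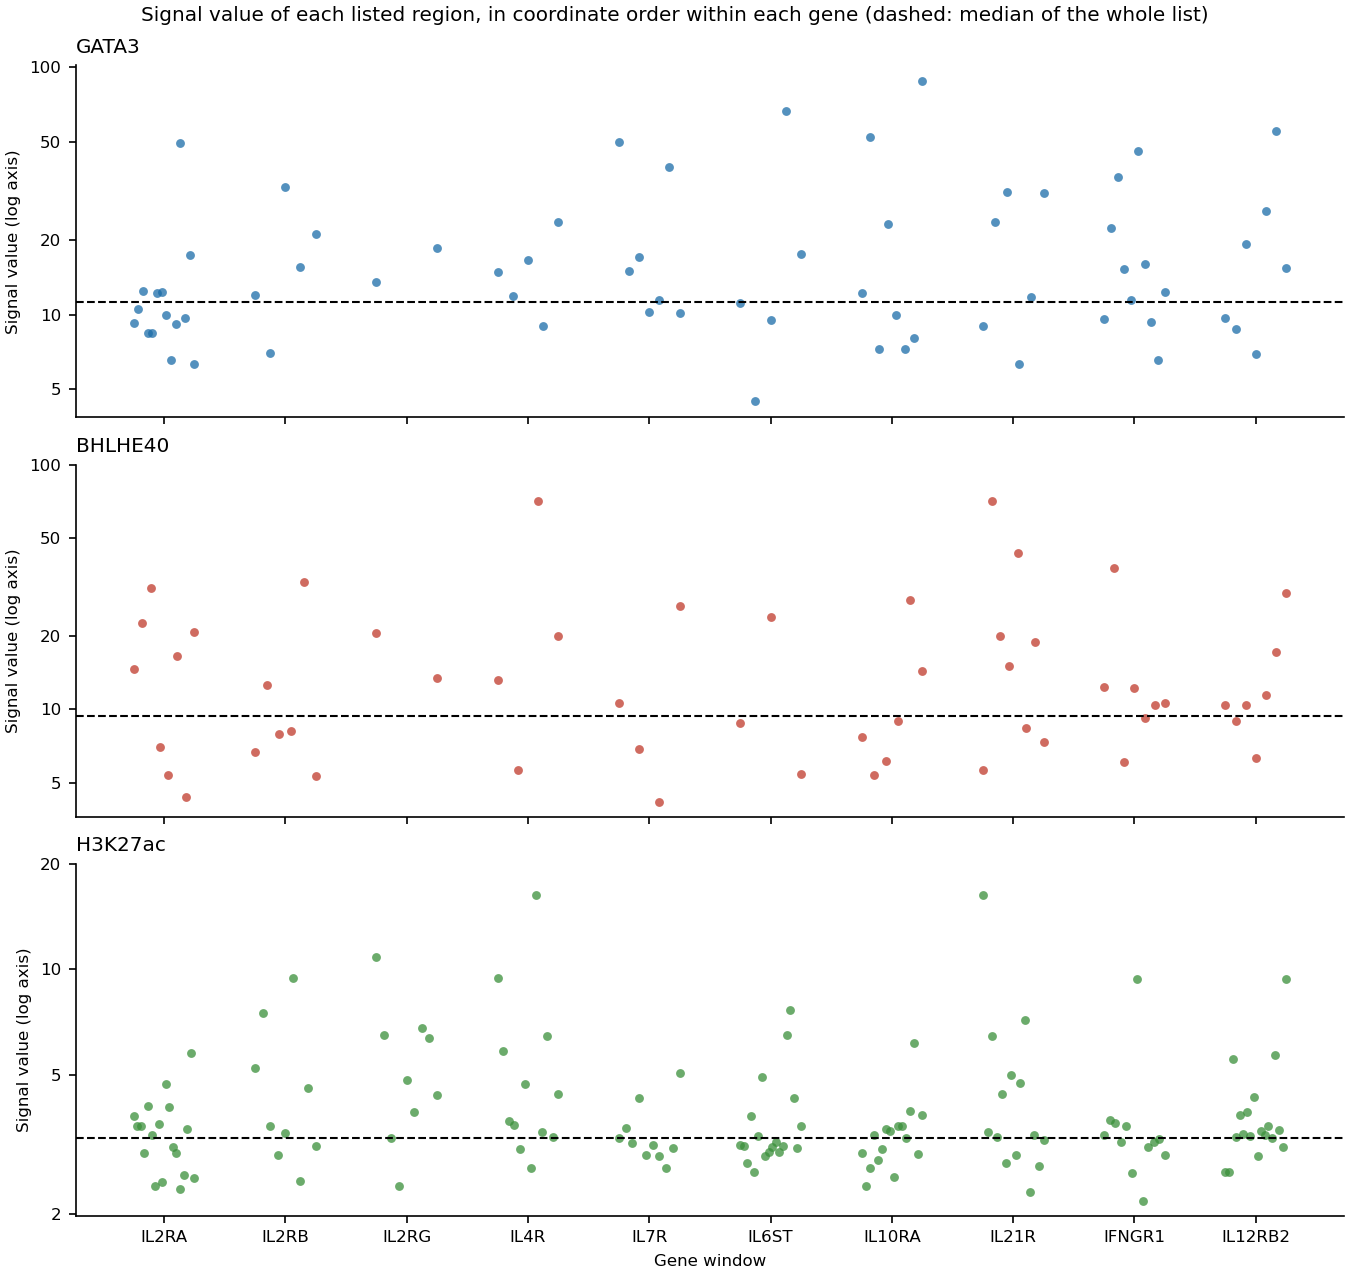
Signal value of every region (y axis, log scale) in each gene window (x axis), in 1 panel per list; points follow coordinate order within a gene and the dashed line is the median of the whole list. In most windows 1 or 2 factor regions stand well above the rest, as for IL10RA (87.6) and IL6ST (66.3) in GATA3 and the place shared by IL4R and IL21R (70.9) in BHLHE40.

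Over the 10 windows, the overlap of the factors was counted in both directions. Of the 67 GATA3 regions, 37 (55.2%, 95% Wilson interval 43.4% to 66.5%) overlapped a BHLHE40 region by at least 1 bp, against 48.7% of the whole list. Of the 52 BHLHE40 regions, 37 (71.2%, interval 57.7% to 81.7%) overlapped GATA3, against 52.96%. H3K27ac overlapped 56.7% of the GATA3 regions (interval 44.8% to 67.9%, whole list 49.1%) and 78.8% of the BHLHE40 regions (interval 66.0% to 87.8%, whole list 76.4%). The intervals cover counting only, and regions are not independent samples. Whole-list values lay inside these intervals except for BHLHE40 overlapping GATA3, and that difference was not tested. All 10 windows held a GATA3 region overlapping both other lists, against 54.9% of protein-coding gene windows, and with 20 kb on each side 6 did.

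The distance between the summits of the factors was measured at each shared place. It was 20 bp in the median of 37 shared GATA3 regions, from 1 bp to 441 bp, with 10 within 10 bp and 25 within 50 bp. Over all 14123 shared GATA3 regions the median was 35 bp, with 19.5% within 10 bp and 61.5% within 50 bp, against 27% and 67.6% in these windows. The whole-list shares lay inside the intervals of the member shares (15.4% to 43.0% and 51.5% to 80.4%). The widest gaps were at SSTR3 (441 bp), beyond IL21R (369 bp), at the IL6ST start (259 bp) and at SNX12 (214 bp). Shared regions had higher medians than unshared ones in both lists: 15.3 against 11.3 for GATA3 and 12.2 against 8.41 for BHLHE40. The same order held over the whole lists, with 13.9 against 10.1 and 11.4 against 7.96.

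The ranks of the 2 factors were compared at the shared places. Ranked within its own list, BHLHE40 stood higher at 21 of the 37 places and GATA3 at 16, and both were in the strongest 10% at 3: the IL7R place in CAPSL, the IL6ST place beyond the start and the IL10RA place in SMIM35. These shares, 56.8% with BHLHE40 higher and 8.11% with both strong, were near the 51.5% and 7.82% of all shared GATA3 regions. BHLHE40 was far higher at the IL4R and IL21R place (strongest 0.5% against 18% for GATA3) and inside IL2RA (4.67% against 58.9%). GATA3 was far higher at chr11:117950193-117951115 beside IL10RA (4.68% against 89.2%), in SPEF2 beside IL7R (5.20% against 41.2%) and inside IL2RB (10.7% against 62.7%). At least 1 GATA3 region of the strongest 10% of its list was found in 6 of 10 windows, against 17.7% of protein-coding genes, and at least 1 such BHLHE40 region in 9 of 10, against 21.6%. For H3K27ac it was 9 of 10, against 68.5%. These counts were not adjusted for window length, and the IL4R and IL21R windows share their strongest BHLHE40 region. The strongest BHLHE40 region was nearest to the member gene in only 3 of 10 windows.

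**Figure D4:**
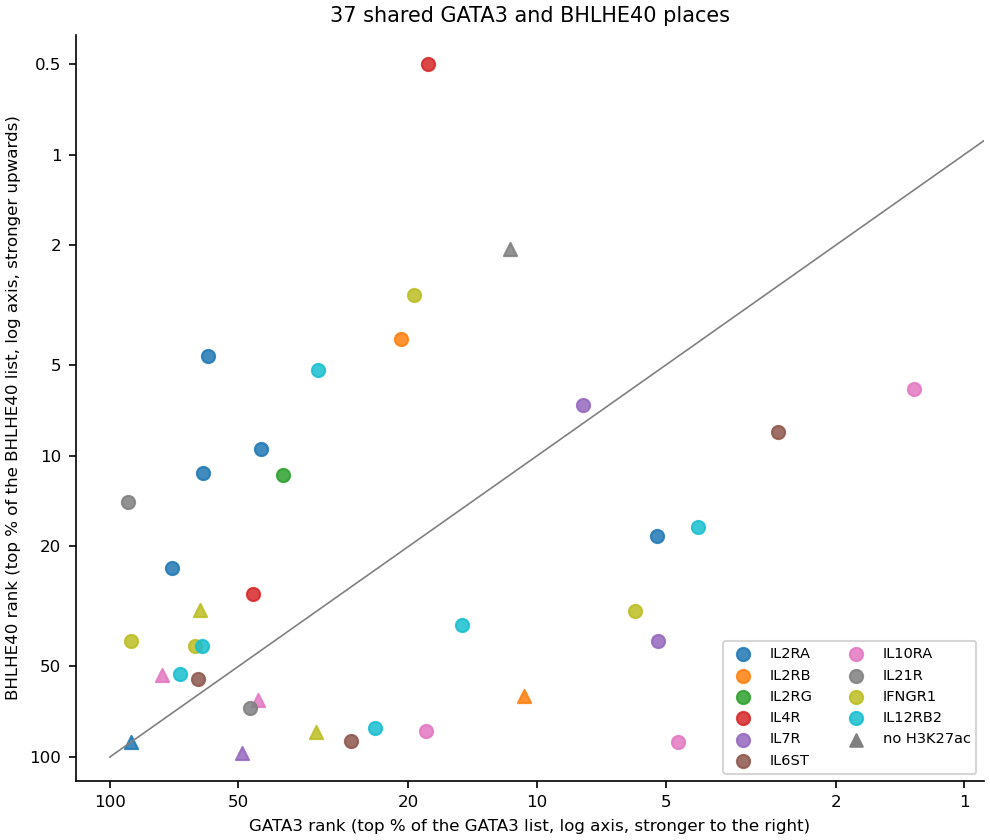
Rank of the GATA3 region (x axis) against rank of the BHLHE40 region (y axis) at each of the 37 shared places, each as the top percent of its own list on a log axis, with stronger regions to the right and upwards; colours are genes, circles overlap H3K27ac, triangles do not and the line marks equal rank. The shared IL4R and IL21R place is the highest point (0.5%) and the SMIM35 place beside IL10RA is farthest right (1.31%).

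Other genes of the pathway were counted in the same way. In a list of 40 further cytokine receptor and JAK kinase genes, BHLHE40 lay within 1 kb of the start of 12 genes, H3K27ac of 16 and GATA3 of 4. The shares of all protein-coding genes were 47.1%, 55.3% and 22.2%, and the difference was not tested. Their median densities per 100 kb were 1.56 for GATA3, 1.505 for BHLHE40 and 5.69 for H3K27ac. Some of their windows overlap those above, as for IL22RA2, IL15RA, IL31RA and IL23R. The JAK genes JAK1, JAK2, JAK3 and TYK2, whose kinases bind the receptor chains, each had BHLHE40 and H3K27ac within 1 kb of the start and no GATA3. The same held for 24.9% of protein-coding genes, and these 4 were singled out after their values were seen. GATA3 regions of the strongest 1% of the list were the strongest of the window for 2 of the 40 genes. One lay 24 bp outside the record of IL9R, a private chain that pairs with IL2RG, at chrX:155997266-155998081 with a signal value of 125, and 1 lay 38040 bp from IL20RB and nearest to NCK1, at chr3:136919480-136920791 with 99.2.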

How the data were processed

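ChIP-seq was analysed from 3 peak lists, for GATA3, BHLHE40 and H3K27ac in the Ctrl_LV groups, each covering both samples of its group per the labels. Per the submitters' processing notes, bcl2fastq 2.20, MACS2 and the hg38 build were used, with no roles given. The aligner and filters are not given in the sources used here. The deposited list names give an irreproducible discovery rate (IDR) of 0.05 for the factors and pooling for H3K27ac. The deposited score is a rank-repeatability score for the factors (540 to 1000) and follows the p-value for H3K27ac. The authors' signal value is an enrichment whose reference is not stated, and the authors' −log10 q accompanies it. These were used only to rank, describe or filter regions within 1 list, and ranks use the signal value.

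No regions within a list overlapped. Coordinates are 1-based on GRCh38. Gene records and promoter sequences came from RefSeq (GRCh38.p14). A start was taken from the promoter table for 15842 of 20037 protein-coding genes and from both record ends otherwise. Sharing means an overlap of at least 1 bp. Percentiles use all 20037 genes. The depth is unknown. The tools were matplotlib 3.10.9, scipy 1.17.1, pandas 2.3.3, numpy 2.4.6 and Python 3.11.15. The overlap and window counts were tested on simulated data.

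The member genes, the pathway and marker lists and the tests were chosen with earlier results of these data known. Named regions are the up to 3 factor regions and the 1 H3K27ac region of highest signal value per window, those at gene starts and places singled out in the text, which were chosen after their values were seen. Genes of the pathway list were named where the strongest factor region of the window was in the strongest 1% of its list, and the JAK genes were added after their values were seen. Alternatives used windows of 20 and 100 kb, start distances of 500 bp and 2 kb, an IDR of 0.01, a −log10 q of 5, stricter overlap and assignment to the nearest gene.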

Additional observations from a re-analysis of the deposited data

How the results depend on the processing

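Of 51 alternative values, 39 stayed within 1.5 times the reported count or distance, or within the interval of the reported share. Assigning regions to the nearest protein-coding gene left 33 of 67 GATA3, 27 of 52 BHLHE40 and 70 of 131 H3K27ac regions, and 6 of 10 genes with a place shared by all 3 lists, as did windows of 20 kb (6). Both settings keep only part of the area of the windows, and the cause of the lower counts was not tested. Requiring a −log10 q of at least 5 left 44 H3K27ac regions and lowered the share overlapping H3K27ac to 26.9% for GATA3 and 50.0% for BHLHE40, because fewer regions remained. With windows of 20 kb, 3 genes for GATA3 and 2 for BHLHE40 exceeded the 90th percentile of density, and with 100 kb 2 did for BHLHE40. The cause was not tested. Taking both record ends as starts, added after seeing the data, gave 3 genes with GATA3 in place of 1, because more positions count as a start. No paired analysis was possible because the 2 samples of a group were deposited as a single list without values for either, and leaving out a replicate was not run for the same reason. The unknown depth limits every count, since a deeper library lists more weak regions.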

Other observations

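Of the 131 H3K27ac regions in the 10 windows, 52.7% overlapped GATA3 or BHLHE40 (95% Wilson interval 44.2% to 61.0%), against 26.4% of all 113570. Among regions whose −log10 q reached 5, these became 77.3% of 44 (interval 63.0% to 87.2%) and 70.0% of 28551, which lay inside that interval. The differences were not tested.

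The place inside IL21R at chr16:27430853-27431544, with a BHLHE40 signal value of 43.3 and no H3K27ac region, belongs to a small class. Of the 1310 BHLHE40 regions in the strongest 5% of the list, 67 (5.11%, interval 4.05% to 6.44%) overlapped no H3K27ac region. The place beside IL10RA at chr11:117950193-117951115 was also unusual. Of 1389 shared GATA3 regions in the strongest 5% of their list, 20 (1.44%, interval 0.934% to 2.21%) had a BHLHE40 partner among the weakest 20% of its list, as this one did. Inside IL2RA, the strongest BHLHE40 region met a GATA3 region in the weaker 50% of its list, as did 175 of 1202 shared BHLHE40 regions in the strongest 5% (14.6%, interval 12.7% to 16.7%). These classes were defined after the places had been seen.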
